A study of Drosophila melanogaster with 48 samples.

Results

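The genes described here encode the protein subunits of the mitochondrial ribosome of Drosophila melanogaster. They were taken as every gene whose FlyBase symbol begins with mRpL, for the large subunit, or mRpS, for the small subunit, and whose mean normalised count was at least 10 in at least 1 of the 6 deposited tables. The rule used no difference between samples. It found 72 genes among the 16185 with a row in the tables, 46 mRpL and 26 mRpS, and all 72 reached the minimum mean. The symbol mRpL53 also begins this way, and that gene was not analysed here.

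The study measured polyadenylated RNA by sequencing in the gut and the fat body of female flies carrying the S106 driver, a hormone-inducible GeneSwitch driver that is active in gut and fat body. Flies in the S106>Wdah groups carried the driver alone on the outbred white Dahomey background. Flies in the S106>Xbp1s groups also carried a transgene for the spliced, active form of Xbp1. Xbp1 is a transcription factor of the unfolded protein response of the endoplasmic reticulum. Flies in the S106>Xbp1U groups carried a transgene for an unspliced form with a mutation that prevents its splicing. Each genotype was kept for 7 days on food with the inducer RU486 at 200 µM (RU+) or without it (RU-), and tissues were dissected at day 9, with 12 guts or fat bodies pooled per library and the fat body collected with the abdominal cuticle attached. These 3 genotypes, 2 tissues and 2 treatments made 12 groups of 3 to 5 libraries and 48 libraries in all.

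Each deposited table held 1 mean normalised count per gene for a genotype and tissue, taken over its RU+ and RU- libraries together, and no value per library. The mean of a gene therefore has no replicate error here, no comparison below has a test, and every ratio is a description of 2 means. A ratio of at least 1.5-fold is given as a fixed size, beside the share of all genes that passed it. The response to RU486 was not analysed here, because only these means were used and each pools both treatments. Between 2 genotypes, the genotype, any batch and the RU486 response cannot be told apart, and the tables were normalised separately. Levels are therefore given as counts per 1000000 of the table's own sum (CPM) and, where genes are compared with each other, as CPM per kilobase of exon.

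The mitochondrial ribosome makes the few proteins encoded by mitochondrial DNA, which are subunits of the oxidative phosphorylation complexes. Its ribosomal RNAs come from mitochondrial DNA, but all of its proteins are encoded in the nucleus, made in the cytosol and imported. Some of these proteins have bacterial counterparts and carry the bacterial numbers, while others are found only in mitochondria and carry higher numbers. Of the 72 genes, 42 carried a number of the bacterial series and 30 a higher one. The fat body stores lipid and glycogen and, in females, secretes yolk proteins, while the gut digests and absorbs food.

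The tables matched their tissue labels by most markers. The gut markers, 10 in the S106>Wdah gut and 9 in the other gut tables, where LManVI had no row, summed to between 54371 and 69230 CPM in the gut and, over 10 markers, to between 152 and 694 CPM in the fat body, and the 10 fat body markers to between 990 and 2073 CPM in the gut and between 63890 and 106177 CPM in the fat body. Among the fat body markers, Fbp1 and Lsp2 lay at 3.65 CPM or less in every fat body table, and takeout (to) was higher in the gut. In S106>Wdah bmm was also higher in the gut, at 124.9 CPM against 98.4 CPM in the fat body. Muscle markers were present in both tissues, at 1789 to 2023 CPM in the gut and 2092 to 3542 CPM in the fat body. The 6 ovary and germline markers summed to 327, 6.03 and 20.8 CPM in the gut and to 2597, 724 and 1483 CPM in the fat body of S106>Wdah, S106>Xbp1s and S106>Xbp1U, a sum led by Cp15, an eggshell gene, in every gut table and in the S106>Wdah and S106>Xbp1U fat body. The 4 Malpighian tubule markers summed to 182, 63.9 and 137 CPM in the gut and to 87.9, 122 and 177 CPM in the fat body. The sums of the means over genes ran from 22483500 in the S106>Wdah gut to 25130000 in the S106>Xbp1s fat body, and the lowest means showed steps for as many libraries as the labels list. The deepest library of a table was between 1.31 and 3.86 times as deep as its shallowest, the widest span being in the S106>Wdah fat body.

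The mitochondrial ribosomal protein genes were expressed at moderate and similar levels. In CPM per kilobase of exon, all 72 lay above the median of all expressed genes in each of the 6 tables. Their mean counts ranged from 97.9 to 2209, and 71 of them had a mean of at least 100 in every table. Together they held 1541 CPM in the S106>Wdah gut, 1329 CPM in the S106>Xbp1s gut and 1352 CPM in the S106>Xbp1U gut. In the fat body they held 1849, 1404 and 1744 CPM in the same order, so that the whole protein set of this ribosome took between 0.133% and 0.185% of the counts.

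Per kilobase of exon the median gene of the set lay at 23.2, 18.3 and 20.02 CPM in the gut and at 27.1, 19.8 and 26.2 CPM in the fat body of S106>Wdah, S106>Xbp1s and S106>Xbp1U. The median of all genes lay between 6.58 and 9.64 CPM per kilobase, and the median of the set fell between the 71.8 and 78.7 percentiles of all genes. The set was narrow. Its upper quartile was 1.44 to 1.89 times its lower quartile in the 6 tables, against 7.67 to 10.4 times for all genes. Averaged over the tables as a geometric mean, 67 of the 72 genes lay between 10 and 40 CPM per kilobase, and the highest gene stood 7.81-fold above the lowest.

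**Figure D1:**
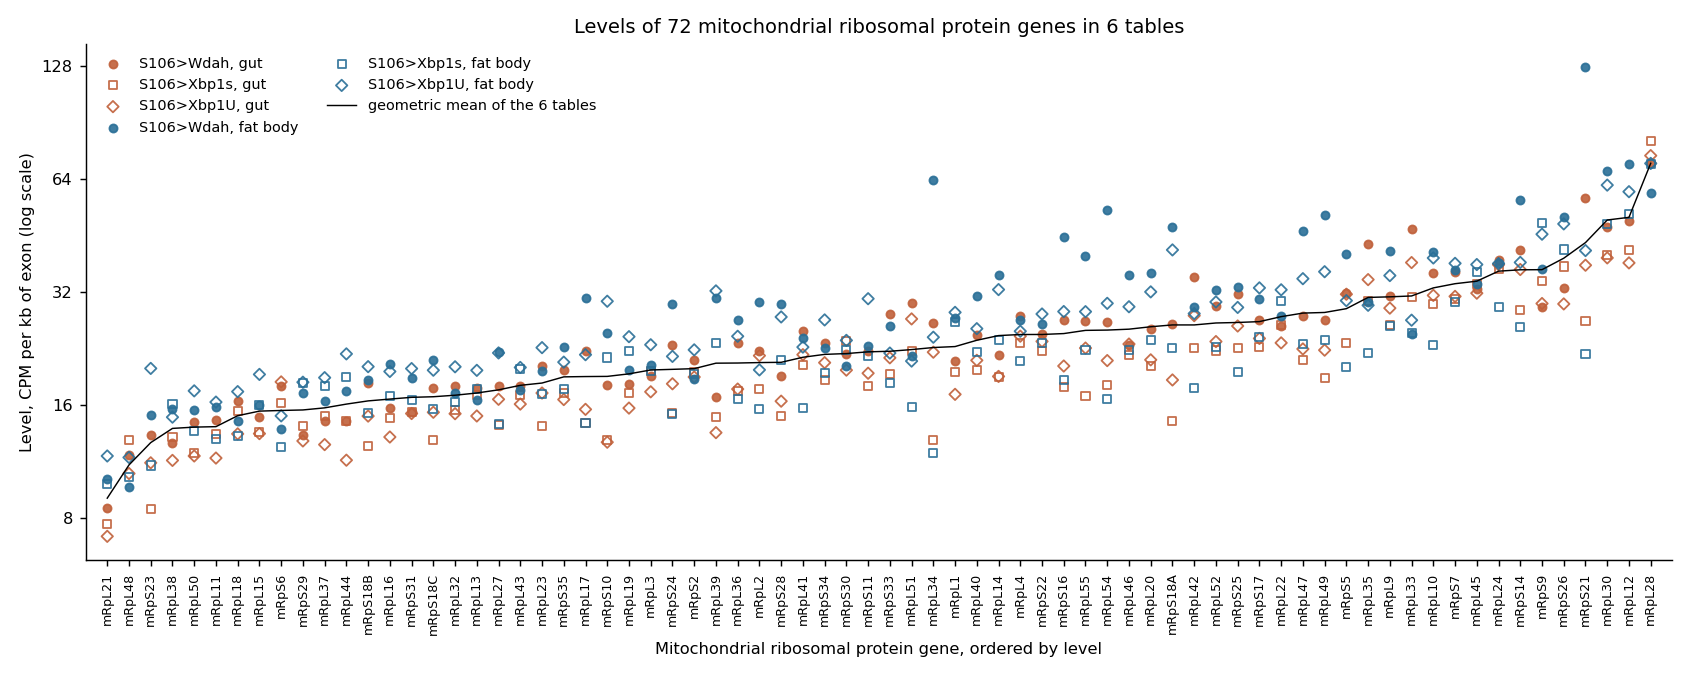
Level of each of the 72 genes in each of the 6 tables, in CPM per kilobase of exon on a log axis, with genes ordered by the geometric mean of the tables (line); colour marks the tissue and shape the genotype, and each point is 1 mean over RU+ and RU- libraries with no error. Most points lie between 10 and 40 CPM per kilobase, and the S106>Wdah fat body points of mRpS21 at 126.7 and of mRpL34 at 63.6 stand far above their other points.

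The large and small subunit genes had close medians, and which was higher turned with the length used in some tables. The median mRpL gene stood at 1.003, 1.01 and 1.07 times the median mRpS gene in the gut and at 1.05, 0.998 and 0.894 times in the fat body, in the same order of genotypes. Genes with bacterial numbers and those with higher numbers were also close, with medians of 22.8 and 23.2 CPM per kilobase in the S106>Wdah gut and 27.4 and 26.0 CPM per kilobase in the S106>Wdah fat body. Across the 15 pairs of tables the order of the genes by level had rank correlations of 0.637 to 0.966 over the same 72 genes, which share gene length and, in pairs of 1 tissue or genotype, flies or background.

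The highest gene was mRpL28, which encodes a large subunit protein with a bacterial counterpart and lies on chromosome 2L from 4973976 to 4975316 (BDGP6.54, which uses dm6 coordinates). It stood at 70.7, 80.7 and 73.7 CPM per kilobase in the gut and 58.5, 70.0 and 70.3 CPM per kilobase in the fat body of S106>Wdah, S106>Xbp1s and S106>Xbp1U, and it led the set in every table but the S106>Wdah fat body. mRpL12, whose product forms the stalk of the large subunit that recruits translation factors, followed on chromosome 3L from 8956791 to 8957584. Its level was 49.3, 41.4 and 38.2 CPM per kilobase in the gut and 69.8, 51.5 and 59.1 CPM per kilobase in the fat body, so that every fat body mean was above every gut mean. mRpL10, which encodes the protein that anchors L12 in the stalk of bacterial ribosomes, stood lower, with a geometric mean of 32.7 against 50.5 CPM per kilobase for mRpL12.

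mRpL30 on chromosome X had a geometric mean of 49.7 CPM per kilobase and mRpS26, one of the proteins outside the bacterial series, 39.3 CPM per kilobase. Both were higher in the fat body than in the gut of each genotype. mRpS21, the fourth by level, encodes the counterpart of a small protein of the bacterial small subunit and was the most uneven gene of the set. Its level ran from 21.9 CPM per kilobase in the S106>Xbp1s fat body to 126.7 in the S106>Wdah fat body, a span of 5.79-fold.

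At the low end mRpL21 had a geometric mean of 9.01 CPM per kilobase and mRpL48 of 11.1 CPM per kilobase. mRpS23, mRpL38 and mRpL50 followed at 12.7, 13.8 and 13.9 CPM per kilobase. The place of mRpL21 depended on the length used, since its annotated exons span 1696 bases and its coding sequence is much shorter. With coding length in place of exonic length, 4 of the 5 highest and 3 of the 5 lowest genes stayed in those groups, and mRpL21 left the lowest 5. For mRpL48, 219 exonic bases overlap frtz and mdg3{}290, both annotated on the opposite strand. Whether the counting used strand is not given in the sources used here.

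The paralogous mRpS18A, mRpS18B and mRpS18C genes had geometric means of 26.1, 16.4 and 16.8 CPM per kilobase. In mammals the protein named S18A belongs to the large subunit, as does the one named S30, and moving both genes to the large subunit, an alternative added after the data were seen, took the ratio of subunit medians in the S106>Xbp1s fat body from 0.998 to 1.05. mRpS29, whose human counterpart is the GTP-binding protein DAP3, had a geometric mean of 15.5 CPM per kilobase. mRpL45, whose human counterpart lies where the ribosome meets the inner membrane, was the steadiest gene of the set, at 31.7 to 37.8 CPM per kilobase in the 6 tables.

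Of the set, 58 genes stayed within 2-fold over the 6 tables, and the median gene spanned 1.63-fold. The other 14 spanned 2-fold or more, led by mRpS21 and by mRpL34 at 5.33-fold.

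The genes tko and bonsai encode mitochondrial ribosomal proteins but carry symbols outside the rule. tko (technical knockout) encodes the small subunit protein S12 and is known for the bang-sensitive seizures of its mutants. It stood at 40.04, 24.4 and 32.4 CPM in the gut and 58.9, 21.8 and 35.3 CPM in the fat body of S106>Wdah, S106>Xbp1s and S106>Xbp1U, so it was lowest in S106>Xbp1s in both tissues. bonsai, which encodes a counterpart of S15, stood at 24.2, 22.9 and 21.1 CPM in the gut and 26.0, 29.6 and 33.1 CPM in the fat body. Neither gene entered the counts.

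The first comparison set the fat body against the gut of the same genotype. The share of counts of these genes was modestly higher in the fat body, and less so than that of the typical gene, so that the direction turned when the tables were scaled to the median gene or compared at like gene length, and in S106>Xbp1s also when the 50 most abundant genes were left out of the sum. The median log2 ratio of fat body over gut was 0.20 in S106>Wdah, 0.07 in S106>Xbp1s and 0.40 in S106>Xbp1U. The corresponding medians over all genes that reached a mean of 10 in each of the paired tables were 0.41, 0.48 and 0.61. The set thus lay 0.21, 0.41 and 0.21 below the all-gene median, and 52, 67 and 55 of the 72 genes lay below it.

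In S106>Wdah 12 of the 72 genes were at least 1.5-fold higher in the fat body, where 42.5% of all 9008 genes were, and 1 was at least 1.5-fold lower, where 18.4% of all genes were. In S106>Xbp1s 3 genes were higher, against 45.4% of all genes, and 0 were lower, against 17.8%. In S106>Xbp1U 19 were higher, against 51.0% of all genes, and 0 were lower, against 15.6%. The members were therefore past this size in either direction at a smaller share than all genes were. The interquartile range of their log2 ratios was 0.48, 0.39 and 0.35, against 1.34, 1.41 and 1.49 for all genes.

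**Figure D2:**
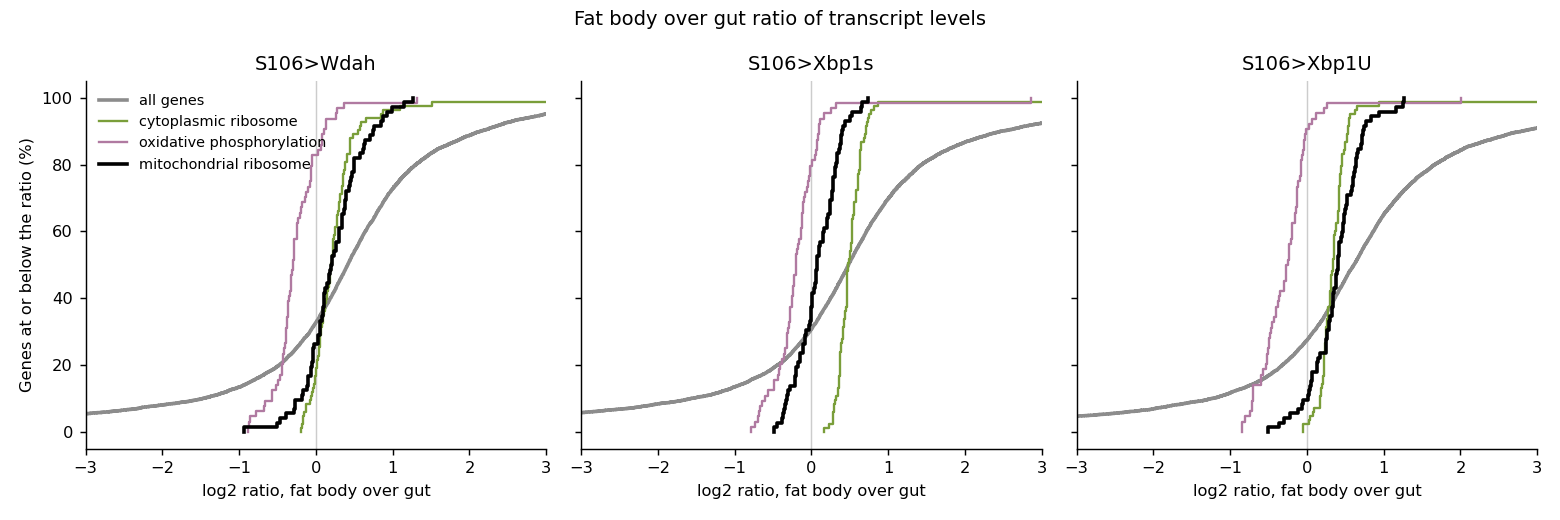
Cumulative share of genes, in percent, at or below each log2 ratio of fat body over gut, in 1 panel for each genotype, for the 72 mitochondrial ribosomal protein genes, the nuclear oxidative phosphorylation genes, the cytoplasmic ribosomal protein genes and all genes; the axis ends at -3 and 3. In every panel the curve of the mitochondrial ribosome lies right of that of oxidative phosphorylation over most of its height, with medians of 0.20, 0.07 and 0.40 against -0.30, -0.20 and -0.25.

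The nuclear genes for oxidative phosphorylation, whose products assemble with the proteins that this ribosome makes, lay on the other side of 0. Their medians were -0.30, -0.20 and -0.25 over 64 genes, with 53, 51 and 58 of these genes lower in the fat body. The median of the ribosomal set stood 0.49, 0.27 and 0.66 above theirs on the log2 scale, a difference within 1 pair of tables that no common scaling of a table can move. Transcripts for the mitochondrial ribosome and those for the respiratory complexes thus differed in their tissue ratio in each genotype.

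The other lists of mitochondrial gene expression had positive medians as well. The 15 mitochondrial tRNA synthetase genes had medians of 0.25, 0.32 and 0.59, and 8 mitochondrial translation factor genes had medians of 0.25, 0.26 and 0.54. The 10 genes for replication, transcription and RNA handling of mitochondrial DNA had medians of 0.18, 0.35 and 0.64. The 83 cytoplasmic ribosomal protein genes had medians of 0.20, 0.48 and 0.35, so the mitochondrial set matched them closely in S106>Wdah and S106>Xbp1U, within 0.06 of their median, and lay 0.41 below them in S106>Xbp1s.

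Among single genes the highest mean ratio was that of mRpL39, a large subunit protein outside the bacterial series. It stood at 16.8, 14.8 and 13.5 CPM per kilobase in the gut and 30.7, 23.4 and 32.1 CPM per kilobase in the fat body, giving log2 ratios of 0.87, 0.66 and 1.26. No fat body mean of mRpL39 overlapped its gut means. mRpS18A, which lies on chromosome 3R from 8561917 to 8562593, had log2 ratios of 0.85, 0.65 and 1.16, from 26.3, 14.5 and 18.6 CPM per kilobase in the gut and 47.5, 22.6 and 41.3 CPM per kilobase in the fat body.

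Its paralogs differed less between tissues. mRpS18B had log2 ratios of 0.03, 0.31 and 0.44, and mRpS18C had 0.24, 0.28 and 0.38. mRpS10 followed mRpS18A with 0.46, 0.73 and 1.25, and mRpL49 with 0.93, 0.34 and 0.70. The proteins of all 4 leading genes are spread over the 2 subunits by name, with 2 symbols from each.

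At the other end mRpL33, a small protein with a bacterial counterpart, was higher in the gut of every genotype. It stood at 47.1, 30.9 and 38.2 CPM per kilobase in the gut and 24.6, 24.8 and 26.9 CPM per kilobase in the fat body, and its log2 ratios were -0.94, -0.31 and -0.51. mRpL51 had log2 ratios of -0.47, -0.49 and -0.37 and mRpL35 of -0.51, -0.45 and -0.22. mRpS6, the counterpart of the protein that pairs with S18 in bacteria, had -0.38, -0.38 and -0.30. These 4 genes were lower in the fat body in all 3 genotypes, while the median of the set was on the higher side.

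Relative to the median of the set, 17 genes were above it in all 3 genotypes, 19 were below it in all 3, and 36 were mixed. That median divides the set in each genotype by construction, and the like count over all genes is not given here. The genotypes are different flies but the same tissues, so the 3 ratios of a gene share its length and sequence. mRpS21 and mRpL34 were the most uneven, with the highest fat body ratios of the set in S106>Wdah, 1.15 and 1.27, and ratios of -0.28 and -0.10 in S106>Xbp1s.

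The second comparison set each transgene genotype against the driver alone in the same tissue, both over RU+ and RU- libraries together. Both transgene comparisons of a tissue share the driver-alone table. In the gut the set lay somewhat lower in the transgene tables, although for S106>Xbp1s this turned when genes were compared at like length. The median log2 ratio was -0.26 for S106>Xbp1s over S106>Wdah, with 62 of 72 genes below 0, and -0.23 for S106>Xbp1U over S106>Wdah, with 69 below 0. The all-gene medians were -0.07 and -0.14, with 5174 of 8971 and 6393 of 9138 genes below 0.

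For S106>Xbp1s in the gut 0 genes were at least 1.5-fold higher, where 2.95% of all genes were, and 10 of 72 were at least 1.5-fold lower, where 17.5% of all genes were. For S106>Xbp1U in the gut 0 were higher, against 1.76% of all genes, and 1 was lower, against 13.9%. The shift in the gut was small, with a smaller share of the set past 1.5-fold than of all genes. Markers of some other tissues had lower levels in the same gut tables, while the median for the 12 muscle markers was 0.15 and 0.012. For S106>Xbp1s and S106>Xbp1U over S106>Wdah the median log2 ratio was -2.05 and -0.53 for the 4 tubule markers, -0.93 and -0.39 for 8 fat body markers, and -5.14 and -2.72 for the 4 and 5 ovary and germline markers with enough counts. Not every such marker was lower, since 3 and 2 of the 8 fat body markers and, in each comparison, 1 of the 4 tubule markers were above 0. The part of these other tissues in the gut ratios was not tested. The oxidative phosphorylation genes had medians of 0.02 and 0.05 in these 2 comparisons.

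In the fat body the set lay lower in S106>Xbp1s. The median log2 ratio over S106>Wdah was -0.37, against 0.10 for all genes. Below 0 were 57 of the 72 genes, where 3820 of all 9501 genes were. As many as 22 genes were at least 1.5-fold lower, or 30.6%, where 8.53% of all genes were, and 0 were higher, where 14.9% of all genes were. For S106>Xbp1U in the fat body the median was -0.02, against 0.15 for all genes. There 5 genes were lower, or 6.94%, where 5.08% of all genes were, and 0 were higher, where 7.41% were.

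**Figure D3:**
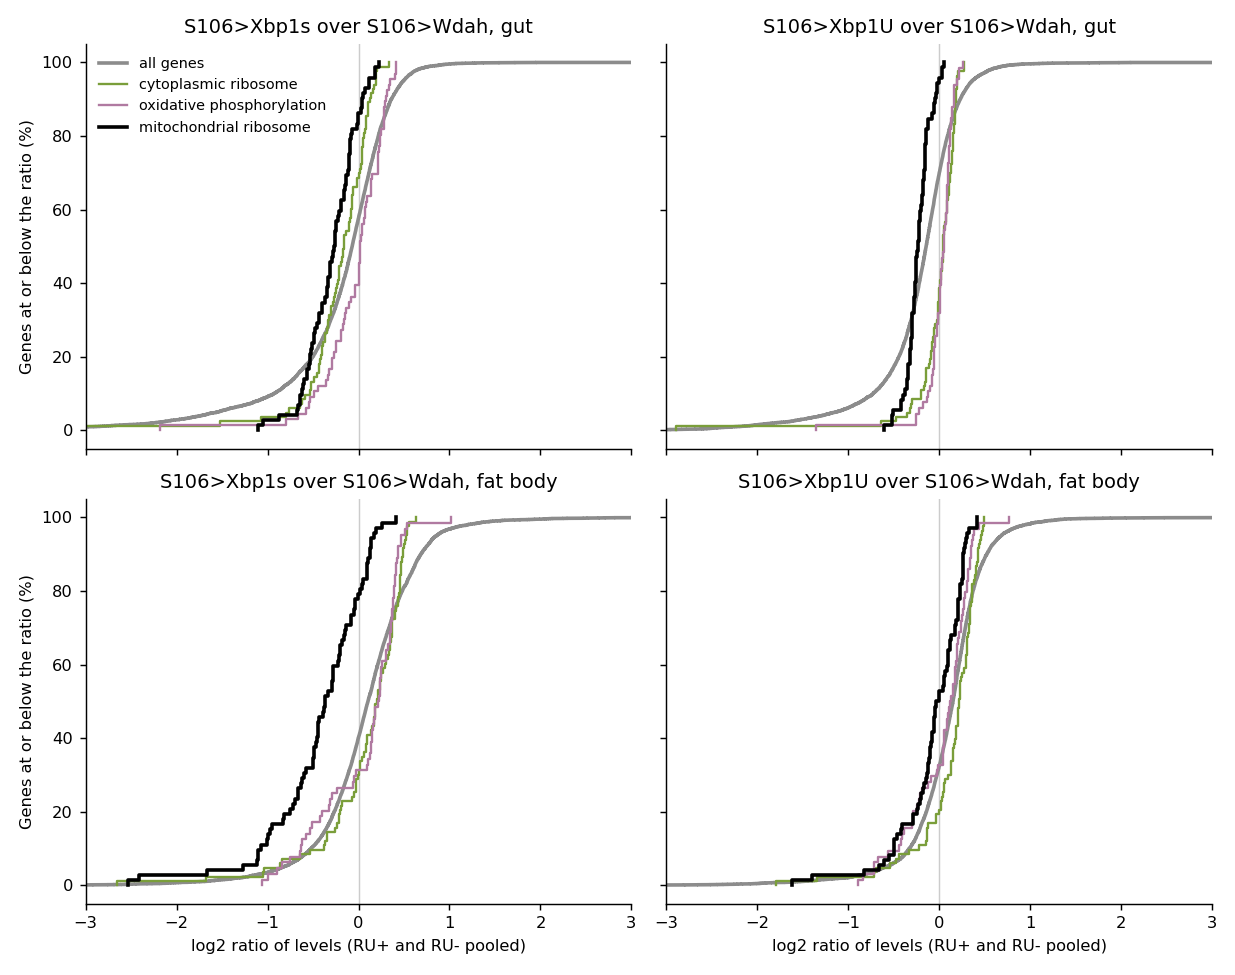
Cumulative share of genes, in percent, at or below each log2 ratio of a transgene genotype over the driver alone, in gut (top) and fat body (bottom), with RU+ and RU- libraries pooled in every mean; the axis ends at -3 and 3. The curve of the mitochondrial ribosome is farthest left of the all-gene curve for S106>Xbp1s in the fat body, with medians of -0.37 and 0.10, and has 0 genes past 1.5-fold on the higher side in any panel.

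The related lists had higher medians in the S106>Xbp1s fat body. Oxidative phosphorylation had a median of 0.22, with 8 of 64 genes at least 1.5-fold lower, and the cytoplasmic ribosome a median of 0.21, with 7 of 83 lower. The tRNA synthetases, the translation factors and the genes for mitochondrial DNA had medians of -0.0022, 0.05 and 0.09, with 0 genes lower in each. The median of the mitochondrial ribosomal set stood 0.58 below that of oxidative phosphorylation and 0.57 below that of the cytoplasmic ribosome. In the S106>Xbp1U fat body these differences were 0.14 and 0.24. Large and small subunit genes were alike in this comparison, with medians of -0.39 and -0.31 in S106>Xbp1s.

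Some ovary and germline markers were lower in the same tables. The 6 of them summed to 2597 CPM in the S106>Wdah fat body, 724 CPM in S106>Xbp1s and 1483 CPM in S106>Xbp1U. Cp15 carried most of that difference, at 1743, 195 and 706 CPM, while osk stood at 137.5, 137.8 and 131.1 CPM and Cp16 at 222, 13.1 and 235 CPM. Their median log2 ratio was -0.64 for S106>Xbp1s and -0.056 for S106>Xbp1U. The muscle markers summed to 2092, 3542 and 2784 CPM in the same order. For S106>Xbp1s and S106>Xbp1U the median log2 ratio was 0.72 and 0.57 for 9 fat body markers and 0.48 and 1.13 for the 4 tubule markers. Only 1 of these was below 0, a fat body marker in S106>Xbp1s. For the 10 gut markers it was -0.095 and -2.07, with 5 and 0 of them above 0. The part of these markers in the lower ratios was not tested. In bulk tissue, fewer cells of a type and less RNA per cell cannot be told apart. The spread of library depth was also widest in the S106>Wdah fat body, and its part was not tested.

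mRpS21 had the most negative ratio of the set in all 4 comparisons. It stood at 27.1 CPM in the S106>Wdah gut, 12.7 in the S106>Xbp1s gut and 17.9 in the S106>Xbp1U gut, and at 60.2, 10.4 and 19.6 CPM in the fat body. The log2 ratios over S106>Wdah were -1.10 and -0.61 in the gut and -2.53 and -1.62 in the fat body for S106>Xbp1s and S106>Xbp1U. The driver-alone fat body mean was thus more than 2-fold above any other mean of this gene. mRpS21 lies on the minus strand of chromosome 3R from 13381276 to 13381809, and 228 of its 475 exonic bases overlap CG8870 on the opposite strand. CG8870 itself was counted at 0.333 CPM or less in every table.

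mRpL34, the shortest gene of the set at 327 exonic bases, had a like profile. Its product is the counterpart of a very small protein of the bacterial large subunit. It stood at 8.62, 4.20 and 7.22 CPM in the gut and 20.8, 3.90 and 7.91 CPM in the fat body of S106>Wdah, S106>Xbp1s and S106>Xbp1U. The log2 ratios were -1.04 and -0.27 in the gut and -2.42 and -1.39 in the fat body, and the driver-alone fat body was again the highest mean.

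Further large subunit genes followed in the S106>Xbp1s fat body. mRpL54 stood at 35.9 CPM in S106>Wdah, 11.3 in S106>Xbp1s and 20.3 in S106>Xbp1U, with log2 ratios of -1.67 and -0.82. mRpL17 had ratios of -1.11 in S106>Xbp1s and -0.50 in S106>Xbp1U, and mRpL49 of -1.10 and -0.50. mRpL17 was also the second lowest in the S106>Xbp1U gut, at -0.52. Among small subunit genes mRpS16 had -1.27 and -0.66, mRpS14 had -1.12 and -0.55, and mRpS18A had -1.07 and -0.20. Exons of mRpL17 and mRpS14 overlap a gene on the opposite strand by 258 and 255 bases. These 8 genes had the most negative ratios in the S106>Xbp1s fat body, and for each of them the S106>Xbp1U mean lay between the S106>Xbp1s and S106>Wdah means.

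For S106>Xbp1s the gut and fat body comparisons use different tables. Of the 10 genes at least 1.5-fold lower in the gut, 8 were also at least 1.5-fold lower in the fat body, which is 80.0% of the first list and 36.4% of the 22 in the second. In both tissues 55 of the 72 genes had a ratio below 0. Neither overlap was counted for all genes, so whether it was larger for this set was not tested. By the study's methods, gut and fat body libraries could come from the same flies.

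Above the driver alone stood 10 and 3 of the 72 genes in the gut and 15 and 34 in the fat body, for S106>Xbp1s and S106>Xbp1U. Among all genes it was 3797 of 8971 and 2745 of 9138 in the gut. In the fat body it was 5681 of 9501 and 6430 of 9512. mRpS9, on chromosome 3R from 7889277 to 7902667, was the most positive gene of the set in S106>Xbp1s in both tissues. It stood at 37.6, 44.1 and 38.5 CPM in the gut and 47.5, 63.1 and 58.9 CPM in the fat body, with log2 ratios of 0.22 and 0.03 in the gut and 0.41 and 0.31 in the fat body. Of its exonic bases 325 overlap ArgRS-m, the mitochondrial arginyl-tRNA synthetase gene, on the opposite strand, and ArgRS-m was counted at 8.91 to 13.2 CPM. mRpL28 had ratios of 0.18 and 0.05 in the gut and 0.26 and 0.26 in the fat body.

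mRpS26 was positive in the S106>Xbp1s gut, at 0.18, and stood at -0.29 in the S106>Xbp1s fat body. mRpS6 was 1 of the 3 genes above 0 in the S106>Xbp1U gut, at 0.03. In the S106>Xbp1U fat body mRpS11 and mRpS23 were the most positive, at 0.42 and 0.41. mRpS23, with 10.6, 7.78 and 14.1 CPM in the fat body of S106>Wdah, S106>Xbp1s and S106>Xbp1U, stood at -0.45 in S106>Xbp1s. None of these ratios reached 1.5-fold, but mRpS23 stood at -0.66 in the S106>Xbp1s gut, which was past that size.

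Low ratios were more frequent among short genes, although mRpL33, the second shortest at 349 exonic bases, had a ratio of 0.013 in the S106>Xbp1s fat body. The exonic length of the set had a median of 783 bases and ran from 327 to 2078, while the 10633 genes that reached a mean of 10 in some table had a median of 1955 bases. The rank correlation of exonic length with the ratio over S106>Wdah across the 72 genes was 0.67 for S106>Xbp1s in the gut, 0.50 for S106>Xbp1U in the gut, 0.50 for S106>Xbp1s in the fat body and 0.35 for S106>Xbp1U in the fat body. Across all genes it was 0.22, 0.09, 0.23 and -0.04. The genes share libraries and are not independent replicates.

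In the S106>Xbp1s fat body 12 of the 23 genes under 700 bases were at least 1.5-fold lower, or 52.2%, against 37.7% of all genes of that length. From 700 to under 1000 bases it was 7 of 27, or 25.9%, against 19.7%, and from 1000 bases 3 of 22, or 13.6%, against 4.74%. Genes of the set and all genes thus both had more low ratios at short lengths, and the set lay lower in each class. The medians in the 3 classes were -0.59, -0.29 and -0.04 for the set and -0.34, -0.07 and 0.14 for all genes. In the S106>Xbp1s gut the medians were -0.49, -0.27 and -0.09 for the set and -0.49, -0.25 and -0.03 for all genes, which were closer to each other.

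**Figure D4:**
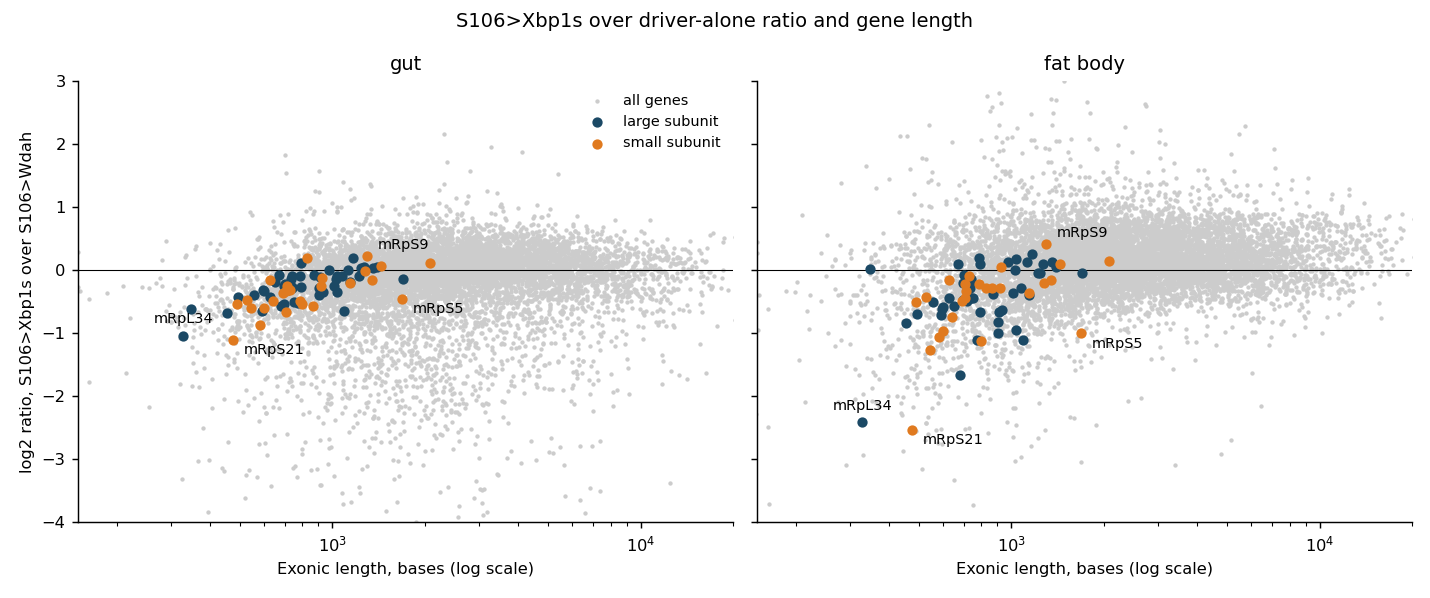
Log2 ratio of S106>Xbp1s over S106>Wdah against exonic length in bases (log axis), in gut and fat body, with all genes in grey and the 72 genes coloured by subunit; values outside -4 to 3 and outside the length range drawn are left out, and each point is a ratio of 2 means over RU+ and RU- libraries. The lowest points in the fat body are the short mRpL34 and mRpS21 at -2.42 and -2.53, while mRpL33, also short, lies at 0.013 and the longer mRpS9 at 0.41.

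Subtracting the running median of all genes of like length, an alternative added after the data were seen, moved the median of the set from -0.26 to 0.03 in the S106>Xbp1s gut and from -0.23 to -0.02 in the S106>Xbp1U gut. In the fat body it moved from -0.37 to -0.23 for S106>Xbp1s and from -0.02 to -0.13 for S106>Xbp1U. At the same length, then, the gut medians were close to those of all genes, and the S106>Xbp1s fat body median remained below. The 3 genes of 1000 bases or more that were at least 1.5-fold lower in the S106>Xbp1s fat body were mRpL17, mRpS5 and mRpL2. The longest of them, mRpS5, has 1682 exonic bases and stood at 67.6 CPM in the S106>Wdah fat body, 33.8 in S106>Xbp1s and 50.9 in S106>Xbp1U, with a log2 ratio close to -1 in S106>Xbp1s. mRpL2 had a ratio of -0.95. Both were chosen after their values were seen.

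The genes lie close to their neighbours in the genome. They were spread over chromosomes 3R (21), 3L (17), 2L (12), X (11) and 2R (11), and 54 had a single annotated transcript. Exons of 41 overlapped those of a gene on the opposite strand and exons of 2, mRpL13 and mRpS14, those of a gene on the same strand, where counting could split or drop reads. Over the 30 genes with no such overlap the median log2 ratio of S106>Xbp1s over S106>Wdah was -0.31 in the fat body, with 9 genes at least 1.5-fold lower, and -0.25 in the gut, with 3 lower. Over all 72 genes these medians were -0.37 (fat body) and -0.26 (gut), with 22 and 10 genes at least 1.5-fold lower. Genes outside the set were not divided by overlap, and the part of overlap in the ratios was not tested.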

How the data were processed

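Poly(A)-selected RNA of 48 samples was sequenced as paired-end libraries. Per the study's methods and the submitters' processing notes, the authors aligned reads to dm6 with HISAT2, counted exonic reads with featureCounts and normalised them with DESeq2 size factors, after removing libraries that clustered apart. The strand setting of the counting is not given in the sources used here.

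Each of the 6 deposited tables holds, for 1 genotype and tissue, the authors' mean normalised count per gene over RU+ and RU- libraries, a non-negative signal, which was the only column used. The other columns hold the authors' own RU+ against RU- comparison (log2 fold change, its standard error, statistic and p-values) and were not used. Leaving them out removes replicate error, so no test was run.

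Symbols came from the FlyBase name table and exonic lengths (union of exons) from Ensembl release 115 on BDGP6.54, both matched by gene ID for 16152 of 16185 genes. Each mean was divided by its table's sum and multiplied by 1000000, and levels were further divided by exonic length in kilobases. Ratios used genes whose mean reached 10 in each of the paired tables, and 1.5-fold was the size counted. Depth was read from repeated steps among the lowest means.

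The members and lists were chosen with earlier results of these data known. Genes were named by rule: the 5 highest and 5 lowest levels, the 4 highest and 4 lowest tissue ratios, the 2 highest and 2 lowest ratios of each genotype comparison, the mRpS18 paralogs, mRpL12, tko and bonsai; others were named after their values were seen. Of 12 listed translation factors 8, and of 16 mitochondrial DNA genes 10, were matched by symbol and measured. Promoter motifs were planned and were not analysed here. The ratio and length code was tested on simulated data with 200 changed genes. Python 3.11.15, numpy 2.4.6, pandas 2.3.3, scipy 1.17.1 and matplotlib 3.10.9 were used.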

Additional observations from a re-analysis of the deposited data

How the results depend on the processing

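Leaving out a replicate was not possible, because the tables hold no value per library. No paired analysis was possible because the values are means over libraries and carry no replicate number. A lower limit of 0 or 100 on the mean changed no median's direction and no count by over 1.5 times, and a pseudocount of 1 CPM, run for the medians alone, changed no direction. Comparisons are given in the order S106>Wdah, S106>Xbp1s, S106>Xbp1U for fat body over gut. Shares of all genes past each size were counted in the main setting alone. The counts below therefore show how the set moved and cannot be set against all genes.

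Scaling to the median gene turned the tissue medians to -0.21, -0.41 and -0.21, with 2, 0 and 2 genes at least 1.5-fold higher and 9, 19 and 9 lower. It gave genotype medians of -0.47 for S106>Xbp1s in the fat body, -0.088 for S106>Xbp1U in the gut and -0.17 for S106>Xbp1U in the fat body, with 5, 0 and 10 genes lower in the S106>Xbp1s gut, the S106>Xbp1U gut and the S106>Xbp1U fat body. Without scaling, the S106>Wdah tissue median was 0.31, 5 genes were higher in the fat body than in the gut of S106>Xbp1s, and against the driver alone 5 and 0 were lower in the S106>Xbp1s and S106>Xbp1U gut. Sums without the 50 most abundant genes turned the S106>Xbp1s tissue median to -0.050 and gave 0.26 for S106>Xbp1U, with 1 and 8 genes higher and 1 and 1 lower. The genotype medians in the fat body were then -0.55 for S106>Xbp1s and -0.18 for S106>Xbp1U, the latter with 10 genes lower. The summed shares were then 2459, 2104 and 2176 CPM in the gut and 3201, 2155 and 2706 CPM in the fat body.

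At 2-fold in place of 1.5-fold, 2, 0 and 3 genes were higher in the fat body and 0 lower in the fat body of S106>Wdah, each against the gut of the same genotype. Against the driver alone 2 and 0 were lower in the S106>Xbp1s and S106>Xbp1U gut and 10 and 2 in the fat body. Subtracting the length trend, an alternative added after the data were seen, turned the tissue medians to -0.069, -0.19 and -0.065, with 5, 0 and 2 genes higher and 5, 7 and 8 lower. It gave genotype medians of 0.032 and -0.021 in the gut and -0.23 and -0.13 in the fat body, with 0 and 0 genes lower in the gut and 10 in the S106>Xbp1U fat body. The ratio of large to small subunit medians with coding length was 1.08 in the S106>Wdah gut and 1.02 and 1.01 in the S106>Xbp1s and S106>Xbp1U fat body. With no division by length it was 0.935 and 0.911 in the S106>Wdah and S106>Xbp1U gut and 0.954 and 1.01 in the S106>Wdah and S106>Xbp1s fat body, and with mRpS30 and mRpS18A in the large subunit 1.05 in the S106>Xbp1s fat body. For S106>Xbp1s over S106>Wdah in the fat body the median was negative in all 7 alternatives run for it, and 0 genes were higher in all 7 run for that count. Among these, the limits of 0 and 100 on the mean kept nearly the same genes. The 2-fold size could not add to a count of 0. Why the other values moved was not tested beyond what each setting changes by construction. Of the set, 71 genes had means of at least 100 in every table. The error between libraries is unknown, and the part of unequal library depth was not tested.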
